A study of Mus musculus with 19 samples.

Results

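The Ly6 surface antigens are small proteins of the Ly6/uPAR fold that hang from the outer face of the cell membrane by a glycosylphosphatidylinositol (GPI) anchor. 6 of their genes, Ly6a, Ly6c1, Ly6c2, Ly6d, Ly6e and Ly6k, were taken by gene name from the deposited expression tables, and all 6 were listed in each of the 4 tables. They are 6 of 22101 genes listed in any table. Bulk RNA of B lineage cells was sequenced after they were sorted from mice immunized with sheep red blood cells and harvested on day 28, in 19 libraries. All groups received this immunization. 4 libraries came from splenic germinal centre (GC) B cells, sorted as CD95+ GL7+, labelled Pik3cg knockout, and 3 from the same gate labelled wild type. 3 libraries of bone marrow and 3 of splenic antibody-secreting cells (ASC), sorted as CD138+, were all labelled wild type. Splenic naive B cells, sorted as CD3- B220+ IgD+, gave 3 libraries labelled knockout and 3 labelled wild type. The header lines of the naive and ASC tables write HET over the 9 columns whose sample labels say wild type, so a wild-type and a heterozygous origin cannot be told apart there. The labels do not tie a library to a particular mouse, with strain and age not given in the sources used here.

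Several of these antigens are used to sort blood cells. Ly6a is Sca-1, the stem cell antigen, which is also carried by activated lymphocytes and is induced by interferon. Ly6c1 and Ly6c2 encode the Ly6C antigen of monocytes, memory T cells and plasma cells. Ly6d appears on lymphoid progenitors as they commit to the B lineage and is kept on B cells. Ly6e is broadly expressed, interferon-inducible and known for restricting the entry of coronaviruses, while Ly6k is best known from the testis, where it is needed for sperm function. The 6 genes lie on chromosome 15 of mm10 within 349.9 kb. In order along the chromosome they are Ly6d (74762056 to 74763620, minus strand), Ly6k (74796874 to 74799986, minus), Ly6e (74955051 to 74959905, plus), Ly6a (74994877 to 74998031, minus), Ly6c1 (75044018 to 75048830, minus) and Ly6c2 (75108158 to 75111970, minus). All are annotated as protein-coding.

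Ly6c1 and Ly6c2 are neighbours whose genes lie 59.3 kb apart. Their coding parts are near-identical, and telling reads apart rests on few bases there. Their coding sequences are 396 bases each and differ at 9 positions (97.7% identity), whereas Ly6a matched Ly6c2 over 81.7% of the alignment and the pairs of members with Ly6d, Ly6e or Ly6k matched over 46.8% to 53.8%. Of all stretches of 100 bases in the annotated transcripts, 9.1% of those of Ly6c1 and 5.8% of those of Ly6c2 also occur in the other gene. The split of shared reads between them is uncertain, the counting method being not given in the sources used here. The first 120 coding bases hold 6 of the 9 differences, shown in capitals (GENCODE release M21, mm10).
Ly6c1: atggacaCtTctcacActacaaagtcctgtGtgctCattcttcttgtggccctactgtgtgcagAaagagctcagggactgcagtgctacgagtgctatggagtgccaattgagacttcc
Ly6c2: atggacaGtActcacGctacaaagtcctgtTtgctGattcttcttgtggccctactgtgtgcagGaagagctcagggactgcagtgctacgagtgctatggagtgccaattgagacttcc

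The 250 bases before the annotated start of each gene differ more than the coding parts do. RefSeq windows (GRCm38.p6) were held for 2 of the 6 members, at chr15:75048838-75049087 for Ly6c1 and chr15:75111972-75112221 for Ly6c2, both on the minus strand. Aligned end to end with free ends they overlapped over 228 columns and were 71.9% identical there. Capitals mark the bases of the overlap that differ or have no partner.
Ly6c1 promoter: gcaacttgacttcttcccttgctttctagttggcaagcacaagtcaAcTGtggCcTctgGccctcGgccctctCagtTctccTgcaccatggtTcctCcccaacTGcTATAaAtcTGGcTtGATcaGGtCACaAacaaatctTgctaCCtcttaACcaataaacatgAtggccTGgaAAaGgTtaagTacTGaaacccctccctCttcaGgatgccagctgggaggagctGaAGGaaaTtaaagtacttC
Ly6c2 promoter: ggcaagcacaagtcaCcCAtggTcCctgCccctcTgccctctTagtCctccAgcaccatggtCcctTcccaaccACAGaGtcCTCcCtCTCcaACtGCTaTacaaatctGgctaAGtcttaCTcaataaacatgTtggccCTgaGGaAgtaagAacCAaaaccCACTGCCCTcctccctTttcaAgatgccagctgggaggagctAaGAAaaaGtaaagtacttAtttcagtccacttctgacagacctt
Neither window held the interferon-stimulated response element (GAAA, any 2 bases, GAAA) or the gamma-activated site TTCNNNGAA on either strand. Over all 32851 windows of this length, 2.98% held the first motif and 7.02% the second.

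Values were deposited as CPM, read counts scaled to a total of 1000000 per library. Depth, worked out from what 1 read was worth, was 10.23 to 21.61 M reads per library (M, 1000000), so that 3 reads, the floor used here, equal 0.139 to 0.293 CPM. The RNA level of Pik3cg did not separate the labels. Pik3cg, the targeted gene, which encodes a catalytic subunit of phosphoinositide 3-kinase, had 66.0, 52.8, 6.55 and 9.04 CPM in GC libraries labelled knockout, against 56.5, 34.3 and 19.4 CPM in GC libraries labelled wild type. It had 94.98, 126.8 and 97.7 CPM in naive libraries labelled knockout, against 114.5, 110.1 and 110.6 CPM in naive libraries labelled wild type. The groups overlapped in both gates. CPM per gene does not show the allele, so these values cannot decide the genotype, and the genotypes are given as labels only. The 10 GC markers together made up 2366 to 3253 CPM of GC libraries labelled knockout, against 266 to 309 CPM of GC libraries labelled wild type, in which Gcsam, S1pr2 and Rgs13 were listed at 0 throughout. The comparison of the GC gate is therefore between libraries that differ in their GC markers as well as in their label. T cell markers (20 genes) reached 1770 to 3531 CPM in the GC libraries labelled knockout against 115 to 201 CPM in those labelled wild type, and 8 of the 20, Cd3d, Cd3e, Cd3g, Trbc2, Cd4, Cd8a, Cd8b1 and Icos, were at 0 in all 3 labelled wild type. Monocyte and macrophage markers (17 genes in the table) summed to 199.4 to 1905 CPM in libraries labelled knockout and 169 to 395 CPM in libraries labelled wild type, with 12 of the 17 at 0 in all 3 libraries labelled wild type, Lyz2, Csf1r and Cd14 among them. Erythroid markers (6 genes) summed to 29.7 to 2977 CPM in GC libraries labelled knockout and to 0.051 to 2.41 CPM under the wild-type label. Of the 10 ASC markers, 5 were lower in GC libraries labelled knockout and 0 higher, among them Xbp1, a transcription factor of secretory cells, at 478.4 ± 83.6 CPM in libraries labelled knockout (SD, n = 4) and 3023 ± 655 CPM in those labelled wild type (SD, n = 3; limma adjusted p 9.64e-05), and Prdm1, which encodes Blimp-1, at 7.09 ± 9.60 CPM under the knockout label and 82.2 ± 23.1 CPM under the wild-type label (limma adjusted p 0.0261). The 5 not called went both ways, with log2 differences of 2.14 (Tnfrsf17), 1.02 (Jchain), 0.18 (Derl3), -0.84 (Txndc5) and -2.94 (Sdc1). Of all genes tested there, 8.54% were higher and 5.09% lower. The ASC list summed to 4226 to 12258 CPM under the knockout label and 7494 to 11967 CPM under the wild-type label, with overlap. Without immunoglobulin rows and Jchain the sums were 1430 to 1984 CPM and 5830 to 8328 CPM, without overlap. The part of these marker differences in the results was not tested. ASC libraries carried their own markers, with the 10 genes of that list at 137199 to 160386 CPM in bone marrow and 112456 to 116866 CPM in spleen, against 1524 to 1954 CPM in naive B cells.

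Ly6d separated the GC libraries by label, and it was the member with the largest called difference. In GC libraries labelled knockout its level was 743.6, 1331, 1098 and 660.4 CPM, against 3195, 3947 and 3443 CPM in those labelled wild type. All 4 lay below all 3, and the highest of the 4 was well under the lowest of the 3. The means were 958.3 ± 313 CPM (SD, n = 4) and 3528 ± 383 CPM (SD, n = 3). On the log2(CPM + 1) scale the difference, labelled knockout over labelled wild type, was -1.93 (SE 0.24, 95% interval -2.46 to -1.40), a 3.82-fold lower level, with a Benjamini-Hochberg adjusted p of 0.0013 in limma.

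In naive B cells Ly6d did not differ past the threshold. Libraries labelled knockout had 3003, 3008 and 3638 CPM and those labelled wild type 3818, 3262 and 3574 CPM. The groups overlapped, and the log2 difference was -0.15 (95% interval -0.37 to 0.07; limma adjusted p 0.793). The difference between labels in the GC gate was itself different from that in naive cells, by -1.79 on the log2 scale (SE 0.30, 95% interval -2.43 to -1.14; limma adjusted p 0.00288). The naive columns labelled wild type are headed HET, so the wild-type label may not mean the same in both gates. The GC libraries labelled wild type lay at the naive level of Ly6d, 0.993 times that of naive libraries labelled wild type on average with overlapping values. Those labelled knockout lay 3.71-fold below the same naive libraries, with no overlap. Fcer2a, the low-affinity IgE receptor CD23 of naive follicular B cells, stood at 62.3 ± 16.0 CPM (SD, n = 4) in the GC libraries labelled knockout and 1925 ± 468 CPM (SD, n = 3) in those labelled wild type. The naive B list as a whole did not follow Fcer2a: of its 10 markers 5 were higher in libraries labelled knockout, 2 lower and 3 not called (median log2 difference 1.26). Ms4a1, which encodes CD20, averaged 2929 ± 266 CPM in libraries labelled knockout and 1291 ± 242 CPM in those labelled wild type (limma adjusted p 0.00131), and Cr2, a complement receptor, 210.02 ± 59.7 CPM in libraries labelled knockout and 14.6 ± 7.81 CPM in those labelled wild type (limma adjusted p 0.000479). The relation of these markers to Ly6d was not tested.

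Ly6a was the second member called in the GC gate. Its level was 228.3, 248.9, 192.9 and 163.6 CPM in GC libraries labelled knockout, against 339.3, 574.5 and 375.3 CPM in those labelled wild type. The groups did not overlap. Their log2 difference was -1.02 (SE 0.23, 95% interval -1.53 to -0.51), a 2.03-fold lower level (limma adjusted p 0.0174). The call rested in part on one library: without the second library labelled wild type, which held the highest value, the difference was -0.79 with a limma adjusted p of 0.0744. Naive libraries labelled knockout had 299.2, 435.8 and 346.1 CPM of Ly6a, against 346.8, 488.7 and 453.6 CPM in those labelled wild type, and the groups overlapped (log2 difference -0.26, 95% interval -0.67 to 0.15; limma adjusted p 0.800). The GC and naive differences were not shown to differ (difference -0.76, 95% interval -1.44 to -0.09; limma adjusted p 0.176). T cells carry Ly6a as well; their markers differed between these GC libraries as given above, and their part in the Ly6a difference was not tested.

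Ly6e did not differ past the threshold in either comparison. GC libraries labelled knockout had 1486, 1316, 1208 and 1179 CPM and GC libraries labelled wild type 1169, 1119 and 1022 CPM (log2 difference 0.23, 95% interval -0.05 to 0.51; limma adjusted p 0.266). The groups met without overlapping, the lowest of the first lying just above the highest of the second, and on a total without immunoglobulin genes they overlapped. In naive B cells the 3 libraries labelled knockout lay at 4575, 4654 and 4553 CPM and the 3 labelled wild type at 4505, 4358 and 4678 CPM, a log2 difference of 0.03 (95% interval -0.09 to 0.14; limma adjusted p 0.938). This was the narrowest interval of any member.

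Ly6k and the Ly6C genes spread widely between libraries of one group and were not called. GC libraries labelled knockout had 1.96, 32.0, 16.9 and 29.2 CPM of Ly6k, against 48.5, 21.4 and 50.2 CPM under the wild-type label (log2 difference -1.34, 95% interval -3.28 to 0.60; limma adjusted p 0.349), with overlap. Naive libraries labelled knockout had 15.8, 13.8 and 21.9 CPM, against 25.3, 6.34 and 5.89 CPM in those labelled wild type (log2 difference 0.70, 95% interval -0.62 to 2.01; limma adjusted p 0.828). GC libraries labelled knockout had 16.6, 20.002, 25.5 and 2.99 CPM of Ly6c2, against 0, 23.8 and 7.02 CPM under the wild-type label, with overlap. Its log2 difference of 1.27 (95% interval -1.40 to 3.94; limma adjusted p 0.528) hung on the first library labelled wild type, where the gene was listed at 0: without it the difference was -0.0045. Ly6c1, at a mean of 1.30 CPM in the GC table, was below the minimum of 10 CPM for testing.

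Of the 5 members tested in the GC gate, 2 were called and both were lower in libraries labelled knockout; Ly6c1 was the 1 not tested. Among all 8522 genes tested there, 13.6% were called, 8.54% higher and 5.09% lower. That is 1162 genes, against 603, 712 and 732 without library 2, 3 or 1 labelled wild type. In naive B cells 0 of 4 tested members were called, where limma called 0 of 8832 genes (0%, with 587 at an unadjusted p under 0.05), and Ly6c1 and Ly6c2 were below the minimum. In the test of the difference between the gates, 1 of 4 tested members, Ly6d, was called, lower, where 7.83% of 8871 genes were called, 5.02% higher and 2.82% lower. These values are drawn in the plot of log2 differences.

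**Figure D1:**
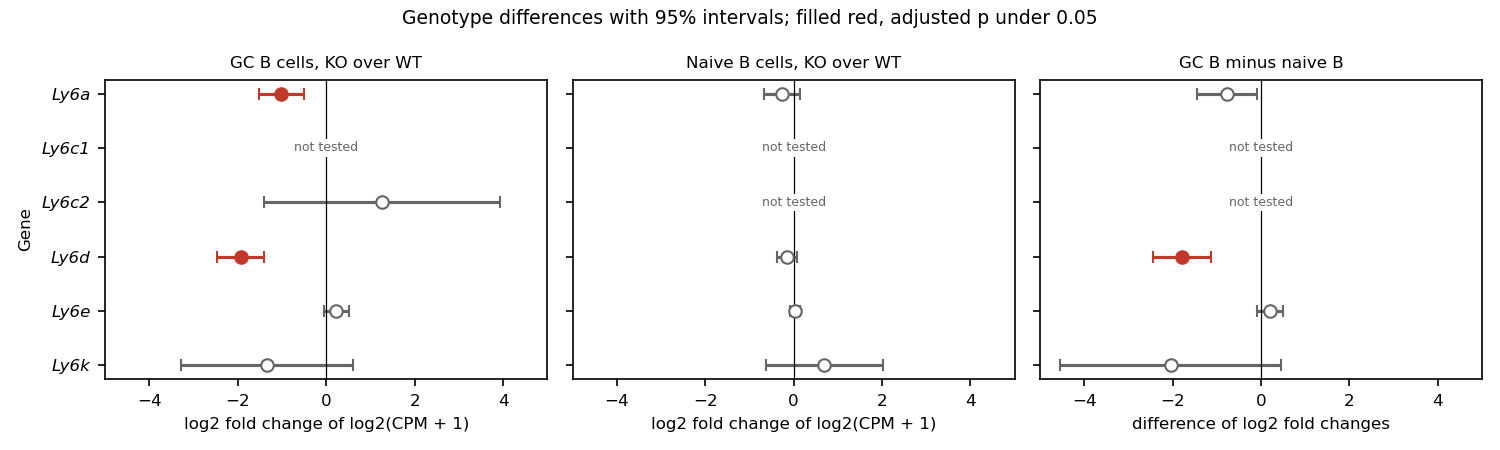
Log2 differences of each member on the log2(CPM + 1) scale, labelled knockout over labelled wild type, in GC B cells (left) and naive B cells (middle), and the GC difference minus the naive difference (right), with 95% intervals from limma. Filled red points passed an adjusted p of 0.05: Ly6d and Ly6a in GC B cells at -1.93 and -1.02, and Ly6d for the difference at -1.79.

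Levels across the 6 groups come from tables that were normalized separately, so they are described without a test. As deposited, Ly6d fell into 3 tiers: ASC at 287.5 CPM or less, GC libraries labelled knockout between 660.4 and 1331 CPM, and GC libraries labelled wild type and naive cells of both labels at 3003 CPM or more. Ly6d stood at 276.1, 287.5 and 282.9 CPM in bone marrow ASC and at 206.9, 225.5 and 250.5 CPM in splenic ASC, so the bone marrow libraries all lay above the splenic ones. Relative to naive libraries labelled wild type these were 12.6-fold and 15.6-fold lower. Ly6e was 6.07-fold and 6.26-fold lower in bone marrow and splenic ASC than in those naive libraries, at 807.4, 714.2 and 710.2 CPM in bone marrow and 757.2, 754.4 and 650.9 CPM in spleen, and the ASC groups overlapped. Ly6e was also lower in the GC gate under both labels, 3.48-fold in libraries labelled knockout and 4.09-fold in those labelled wild type, so on this gene the GC libraries labelled wild type did not lie at the naive level. In bulk libraries fewer cells of a type and less RNA per cell cannot be told apart.

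**Figure D2:**
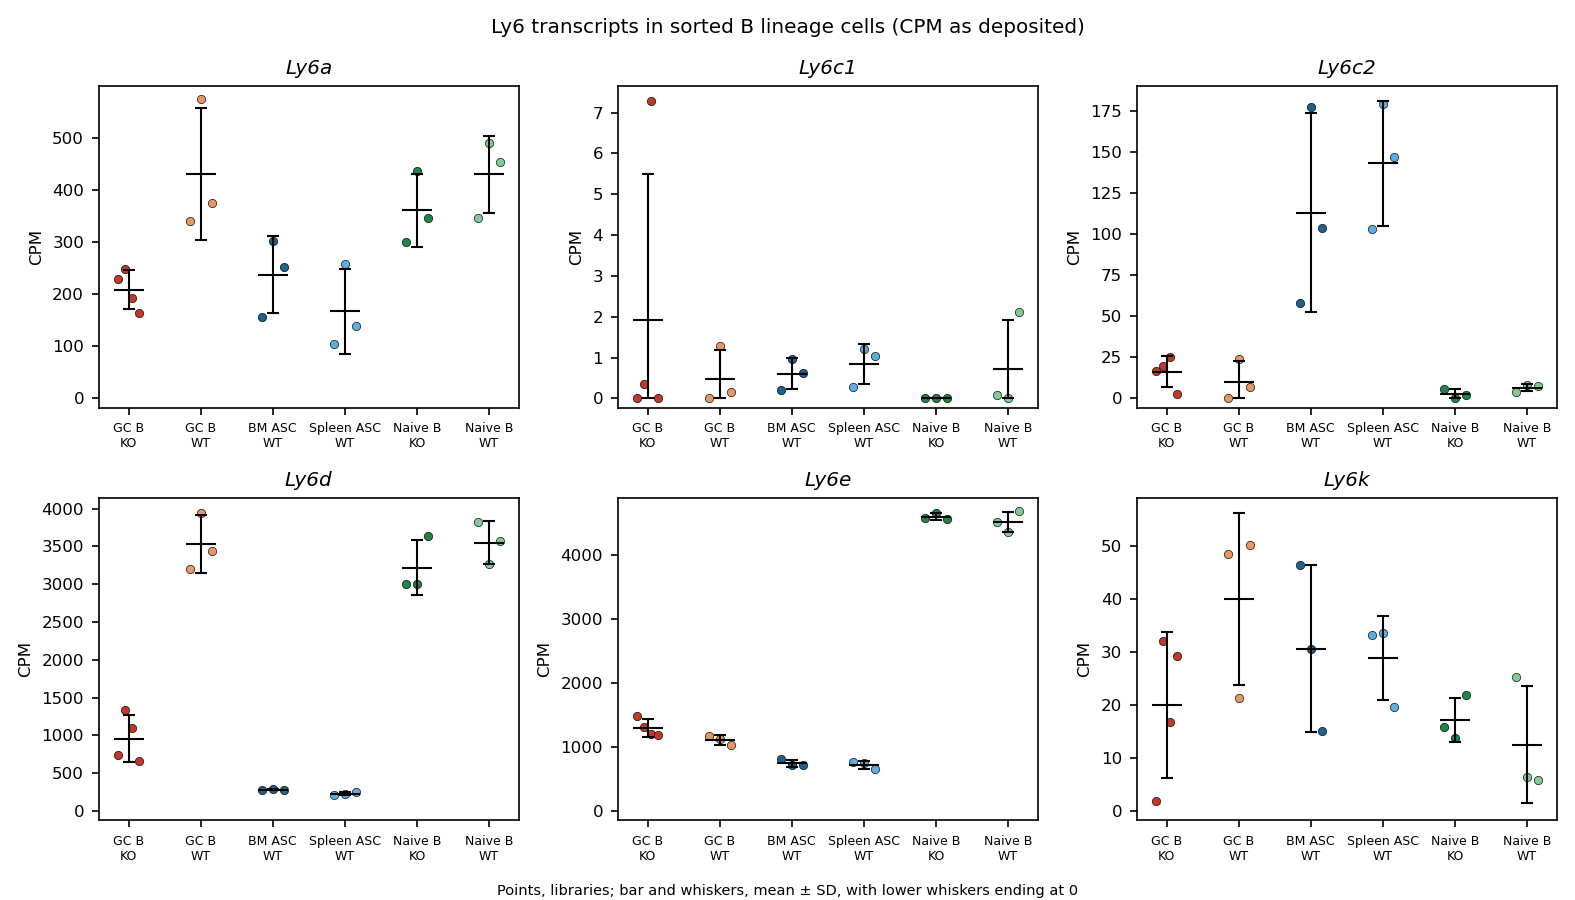
CPM of each member in the 19 libraries, by group, with the mean and SD; lower whiskers end at 0. Ly6c2 lay between 57.8 and 178.8 CPM in ASC and at or below 25.5 CPM elsewhere, while Ly6d and Ly6e as deposited were lowest in ASC.

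Ly6c2 was the member whose own highest group means as deposited were those of ASC, although Ly6e, Ly6d and Ly6a averaged more CPM there. GC libraries held 2.99 to 25.5 CPM of Ly6c2 under the knockout label and 0 to 23.8 CPM under the wild-type label. Ly6c2 stood at 57.8, 177.4 and 103.7 CPM in bone marrow ASC and at 103.0, 178.8 and 147.0 CPM in splenic ASC. Naive libraries had 5.96, 0 and 2.12 CPM under the knockout label and 4.06, 7.97 and 7.56 CPM under the wild-type label. Every ASC library lay above every B cell library, and the bone marrow and splenic groups overlapped. On average the level was 17.3-fold higher in bone marrow and 21.9-fold higher in splenic ASC than in naive libraries labelled wild type. Its near-twin Ly6c1 did not follow. Ly6c1 stood at 0.22, 0.97 and 0.62 CPM in bone marrow ASC and at 0.28, 1.22 and 1.04 CPM in splenic ASC, and it was under the floor of 3 reads in 8 of the 19 libraries, 7 of them listed at 0. Per kilobase of annotated exon, splenic ASC held 52.2 CPM of Ly6c2 and 0.50 CPM of Ly6c1, although the split of shared reads between these genes is uncertain as described above.

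Markers of other cells that carry Ly6C were summed as deposited and, since immunoglobulin rows weigh on ASC totals, also on the total without those rows and Jchain. Monocyte and macrophage markers (17 genes) reached 10.1 to 72.5 CPM in bone marrow ASC and 46.8 to 82.7 CPM in splenic ASC as deposited, against 30.5 to 98.5 CPM in naive B cells of both labels. On the remaining total they reached 58.2 to 441.1 CPM in bone marrow ASC and 200.8 to 306.0 CPM in splenic ASC, against 31.8 to 102.6 CPM in naive B cells, so the splenic ASC then lay above the naive libraries. Fcgr1, Cd5l and Marco were at 0 in both ASC groups, whereas Itgam averaged 46.9 ± 23.0 CPM as deposited in splenic ASC and Lyz2 35.6 ± 26.4 CPM in bone marrow ASC (SD, n = 3 each), against 1.31 ± 1.37 CPM of Itgam and 33.2 ± 28.2 CPM of Lyz2 in naive libraries labelled wild type (SD, n = 3). Neutrophil markers (11 genes) reached 55.9 to 281.8 CPM in bone marrow ASC and 0.061 to 28.4 CPM in splenic ASC as deposited. Naive B cells held 0.46 to 164.9 CPM of them. On the remaining total they reached 323.0 to 1715 CPM in bone marrow ASC and 0.22 to 122.0 CPM in splenic ASC. Naive B cells then held 0.48 to 171.6 CPM. On that total natural killer markers, mostly Prf1, reached 161.9 to 251.2 CPM in ASC against 13.5 to 43.0 CPM in naive B cells. Dendritic cell markers reached 471.3 to 646.2 CPM in ASC against 172.6 to 232.6 CPM in naive B cells. Tcf4 and Bst2 made up most of the dendritic sums in ASC. As deposited, Tcf4 averaged 54.9 CPM in bone marrow and 96.0 CPM in splenic ASC, and Bst2 36.0 and 44.2 CPM. Ly6c2 of bone marrow ASC was 0.791 times that of splenic ASC as deposited and 1.12 times on the remaining total, with overlap on both. T cell markers reached 97.8 to 143.3 CPM in bone marrow ASC and 161.0 to 269.1 CPM in splenic ASC as deposited, against 563.8 to 645.7 CPM in naive B cells, and 536.9 to 827.6 CPM and 690.8 to 995.3 CPM in the same ASC groups on the remaining total, against 585.6 to 672.0 CPM in naive B cells. As deposited, Cd2 made up most of the naive T cell sums, averaging 482.4 CPM under the knockout label and 474.9 CPM under the wild-type label. Cd28 made up most of the ASC sums, averaging 91.4 CPM in bone marrow and 163.2 CPM in spleen. Cd3e was at 0 in both ASC groups. The part of any of these cell types in the Ly6c2 level was not tested.

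Immunoglobulin transcripts filled most of each ASC library and so lowered every other gene's CPM. Rows of immunoglobulin genes and Jchain, the joining chain of polymeric antibody, held 78.0% to 83.6% of the total in bone marrow ASC and 72.3% to 76.7% in splenic ASC, against 2.63% to 13.6% in the GC gate and 3.72% to 4.16% in naive B cells. With these rows taken out of the total, the order of several members turned. Ly6a was 1.81-fold lower in bone marrow ASC than in naive libraries labelled wild type as deposited, and 2.90-fold higher on the remaining total, at 902.7, 1841 and 1148 CPM against 361.9, 508.6 and 472.4 CPM, without overlap either way. In splenic ASC it was 2.57-fold lower as deposited, and on the remaining total, at 384.2, 1108 and 502.0 CPM, it overlapped the naive libraries. Ly6e in bone marrow ASC, 6.07-fold below naive cells as deposited, came to 4663, 4347 and 3227 CPM of the remaining total against 4700, 4535 and 4872 CPM in naive libraries labelled wild type, which overlapped. In splenic ASC it was still 1.68-fold lower, without overlap. Against the GC gate the order of Ly6e turned: as deposited both ASC groups lay below both GC groups, and on the remaining total they averaged 4079 ± 754 CPM in bone marrow and 2796 ± 443 CPM in spleen (SD, n = 3 each), above 1381 ± 111 CPM in GC libraries labelled knockout (SD, n = 4) and 1245 ± 56.4 CPM in those labelled wild type (SD, n = 3), without overlap.

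Ly6d and Ly6c2 of ASC kept their direction relative to naive cells on both totals. Ly6d came to 1595, 1750 and 1286 CPM of the remaining total in bone marrow ASC and to 765.3, 967.2 and 904.7 CPM in splenic ASC, against 3984, 3394 and 3723 CPM in naive libraries labelled wild type. It was thus 2.40-fold lower in bone marrow ASC and 4.21-fold lower in splenic ASC, and 1.76-fold higher in bone marrow than in spleen without overlap. Its tiers did not hold on the remaining total: bone marrow ASC averaged 1543 ± 236 CPM and splenic ASC 879.1 ± 103 CPM (SD, n = 3 each), and both overlapped the GC libraries labelled knockout, at 1023 ± 340 CPM (SD, n = 4). Ly6c2 was 92.4-fold higher in bone marrow ASC and 82.3-fold higher in splenic ASC than in those naive libraries. Ly6k overlapped naive cells as deposited, and on the remaining total it was 13.3-fold higher in bone marrow and 8.63-fold higher in splenic ASC without overlap, at 174.0 ± 100.3 CPM and 112.7 ± 37.5 CPM against 13.1 ± 11.6 CPM (SD, n = 3 each).

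**Figure D3:**
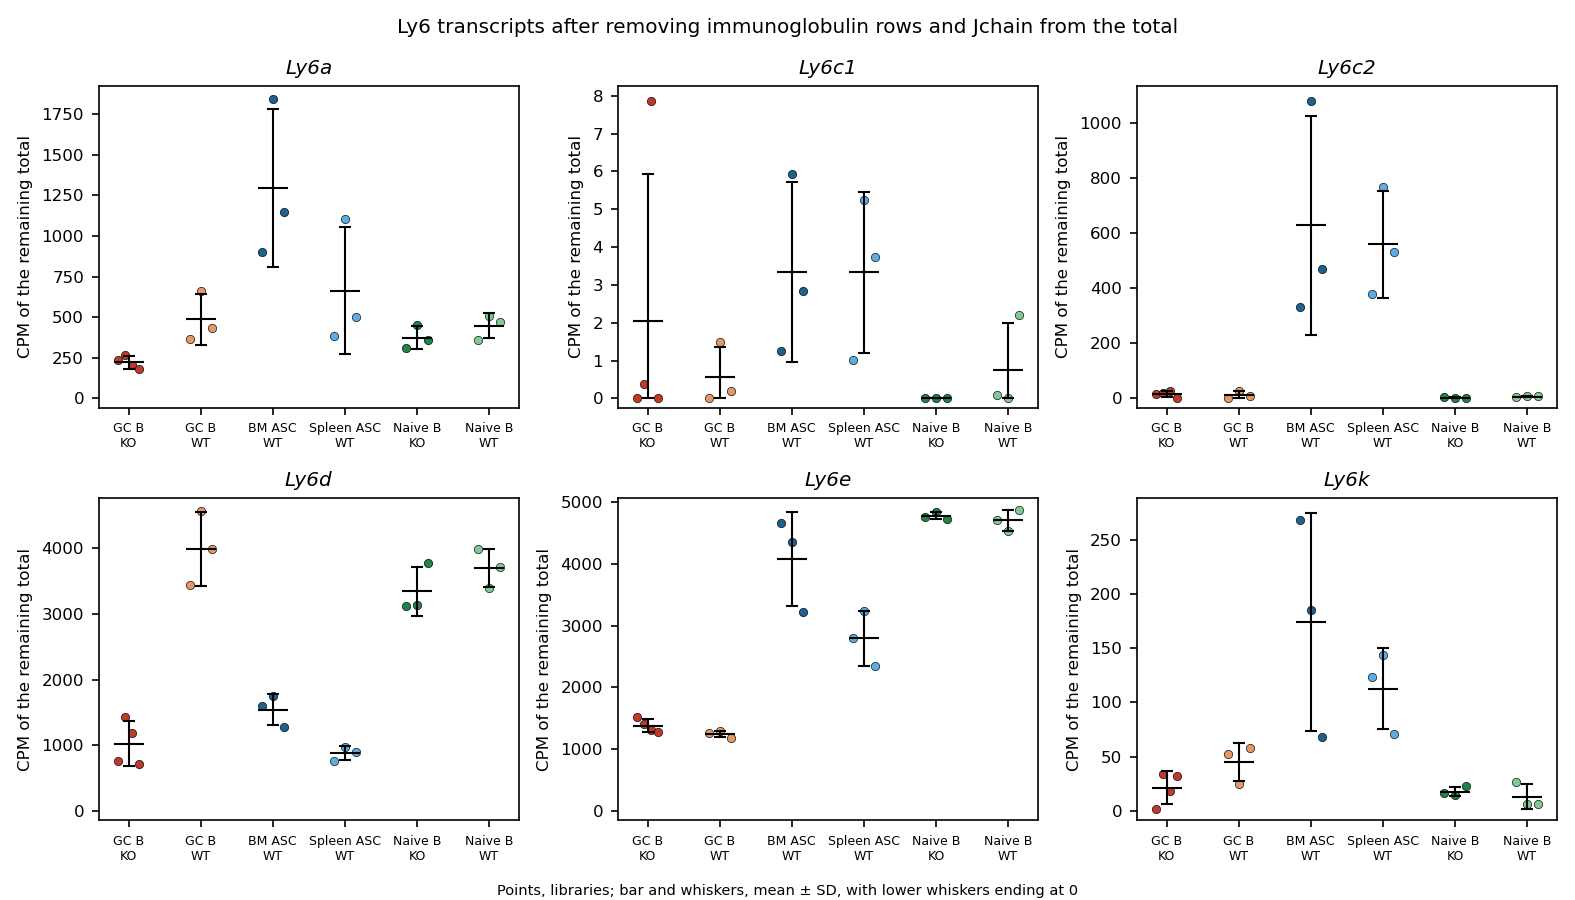
CPM of each member in the 19 libraries after immunoglobulin rows and Jchain were removed from the total, by group, with the mean and SD; lower whiskers end at 0. Ly6a and Ly6k averaged highest in bone marrow ASC, where both overlapped splenic ASC. Ly6e of bone marrow ASC reached the naive range, and Ly6d of ASC stayed below the naive libraries.

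The balance of Ly6d and Ly6e within a library does not depend on its total. Per kilobase of annotated exon, Ly6d stood at 2.54 to 5.14 times Ly6e in GC libraries labelled knockout and at 13.9 to 17.9 times in those labelled wild type. The ratio was 1.74 to 2.05 in bone marrow ASC, 1.39 to 1.96 in splenic ASC, 3.29 to 4.06 in naive libraries labelled knockout and 3.81 to 4.31 in those labelled wild type. The GC libraries labelled wild type therefore stood apart from all 16 others, combining a naive level of Ly6d with a level of Ly6e near that of the other GC libraries, as the plot of the pair shows. A processed pseudogene, Ly6e-ps1 on chromosome 12, could share reads with Ly6e, and it stood at no more than 9.98 CPM in any library.

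**Figure D4:**
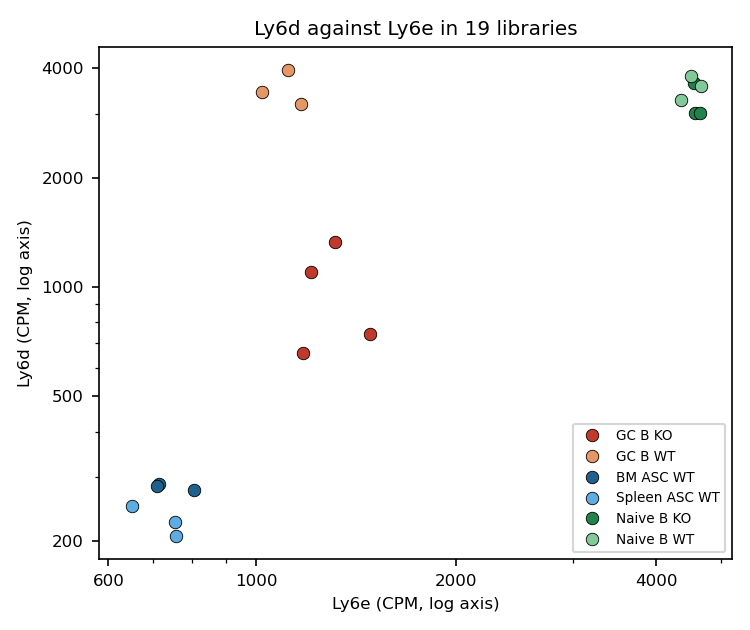
Ly6d against Ly6e in the 19 libraries, both in CPM on log axes, coloured by group. ASC lie at the lower left, naive libraries at the upper right, and the 3 GC libraries labelled wild type at the upper left with Ly6d at 3195 CPM or more and Ly6e at 1169 CPM or less.

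The genes most like each member over the 19 libraries were found by Pearson correlation of log2(CPM + 1) among 8679 genes, for the 5 members that averaged at least 10 CPM in some group; Ly6c1 did not. The libraries share their 6 groups and the immunoglobulin load of their totals, so these values describe group patterns. Ly6d was most like Fcer2a (r = 0.976), the enolase gene Eno1b (0.969) and Il4ra, the interleukin-4 receptor chain (0.968). Ly6e was most like Tesk1 (0.977), a protein kinase gene, and the ribosomal protein genes Rpl17 (0.962) and Rps27 (0.955). Tesk1, Rpl17 and Rps27 were low, averaging 33.5, 28.2 and 65.6 CPM in naive libraries labelled wild type. GC libraries labelled knockout averaged 3.63, 5.98 and 6.73 CPM of them. Ly6c2 was most like Tram2 (0.922), Trp53inp1 (0.876) and Tnfrsf17 (0.857), the last encoding BCMA, the plasma cell survival receptor. Ly6a was less tightly matched, to Rhbdf2 (0.819), Sdc4 (0.816), a syndecan, and Ube2l6 (0.816), the ISG15-conjugating enzyme, and Ly6k least, to Gmppa (0.727), Dhdds (0.712) and Bet1 (0.645). Among the members, Ly6c2 ran opposite to Ly6d (r = -0.82), and Ly6a ran with Ly6d (r = 0.79).

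Of 36 other Ly6/uPAR genes, 8 were listed in the GC table and 4 tested, of which 2 were higher in libraries labelled knockout and 0 lower (median log2 difference 3.00, against 0.025 over all genes tested). Over all genes tested, 8.54% were higher and 5.09% lower. Cd59a, an inhibitor of complement, averaged 34.3 ± 6.85 CPM in libraries labelled knockout and 0.26 ± 0.45 CPM in those labelled wild type (SD, n = 4 and 3; log2 difference 4.84, limma adjusted p 0.00255). Plaur, the urokinase receptor, averaged 51.0 ± 9.92 CPM in libraries labelled knockout and 2.04 ± 3.53 CPM in those labelled wild type (log2 difference 4.74, limma adjusted p 0.00585). Lynx1 and Ly6m were not called, with log2 differences of -1.85 and 1.26 (limma adjusted p 0.221 and 0.458). Monocytes and macrophages carry Plaur, and their marker sums given above were also higher in part of these libraries; their part in this was not tested.

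Ly6a and Ly6e are interferon-inducible, so a list of interferon-stimulated genes was also read in the GC gate. Of 43 such genes, 32 were tested there, 12 were higher in libraries labelled knockout, 0 lower and 20 not called (median log2 difference 1.32), where 8.54% of all genes tested were higher and 5.09% lower. Ifi209, of the interferon-inducible p200 family, averaged 477.1 ± 5.37 CPM in libraries labelled knockout and 69.04 ± 7.23 CPM in those labelled wild type (limma adjusted p 1.64e-05). Ifi47, an interferon-inducible GTPase, averaged 120.3 ± 13.7 CPM under the knockout label and 34.4 ± 7.91 CPM under the wild-type label (limma adjusted p 0.00255). Rtp4 averaged 46.1 ± 23.8 CPM in libraries labelled knockout and was listed at 0 in all 3 labelled wild type (limma adjusted p 0.00387). The summed list was 2420 to 3109 CPM under the knockout label and 1025 to 1036 CPM under the wild-type label in the GC gate, against 2776 to 3422 CPM in naive B cells of both labels, where 0 of 35 tested genes were called. T cell and erythroid marker sums also differed between these GC libraries, as given above. The relation of this list to the levels of Ly6a and Ly6e was not tested.

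Genes that build and attach the GPI anchor were mostly not called. Of 29, 18 were tested in the GC gate, of which 1 was lower in libraries labelled knockout, 0 higher and 17 not called (median log2 difference -0.36), close to the 5.09% of all genes tested that were lower. The called gene was Pigk, the catalytic subunit of the transamidase that attaches the anchor, at 45.4 ± 13.7 CPM in libraries labelled knockout and 125.5 ± 15.0 CPM in those labelled wild type (log2 difference -1.49, limma adjusted p 0.0119). Pign, Pigf and Pigg, which add or supply groups of the anchor's sugar core, had log2 differences of -3.28, -2.98 and -3.21 (limma adjusted p 0.0810, 0.129 and 0.131). In naive B cells 0 of 20 tested genes were called.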

How the data were processed

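RNA-seq values of 19 libraries in 6 groups were used, grouped by the sample labels. Reads were aligned with STAR to mm10, per the submitters' processing notes (counting tool, annotation and strand setting: not given in the sources used here). The authors deposited CPM in 4 tables whose columns sum to 1000000. The germinal centre values each held an added 0.0001, which was subtracted. There 17939 genes are listed, and in the others 19416, of which 19 rows with date-like names were left out.

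The worth of 1 read, taken from low CPM values, gave depths of 10.23 to 21.61 M reads (M, 1000000). Few enough low values were whole reads (tolerance 0.02, below 1000 reads: 61.4% to 67.8% in germinal centre libraries, 85.2% to 88.8% elsewhere) that no count test was used. The floor of 3 reads per library marks the lowest values only, and counting error above it was not modelled.

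Tests were run with limma 3.58.1 (trend, R 4.3.3) on log2(CPM + 1), which understates changes of low genes, over genes averaging 10 CPM or more, within each table, and in a fit of both tables for the difference between gates; a call needed an adjusted p (Benjamini-Hochberg) under 0.05. The fit was tested on simulated data. Replicates are not tied to animals in the labels, so p-values measure the spread between these libraries. Same-numbered libraries of the 2 labels did not deviate together (correlations -0.047 to 0.079), so the numbers were not used as pairs. Other settings tried were the scaling, pseudocount, filter, robust and weighted fits, a replicate block and leaving out each library. The members and gene lists were chosen with earlier results of these data known. Named genes are the members, Pik3cg, the 3 genes most correlated with each member, and up to 4 per list by p. Fcgr1, Cd5l, Marco and other markers are named where at 0. Fcer2a, Ms4a1, Cr2, Xbp1, Prdm1, Itgam and Lyz2 were named as markers after their values were seen. The same holds for Tnfrsf17, Jchain, Derl3, Txndc5, Sdc1, Cd2, Cd28, Prf1, Tcf4 and Bst2. 1 gene that this rule chose is not reported here. Sequences came from GENCODE release M21 and RefSeq, and Python 3.11.15, pandas 2.3.3, Biopython 1.88 and matplotlib 3.10.9 were used.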

Additional observations from a re-analysis of the deposited data

Results flagged for a closer look

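Ly6c1 stood far above its group in 1 GC library labelled knockout, at 7.29 CPM (about 120 reads), where the other 3 had 0, 0.35 and 0 CPM. 6 groups of 4 libraries were examined in this way, 1 for each member, and chance alone flags about 1 in 20. The same library held the highest Ly6c2 of the 4, at 25.5 CPM.

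The difference of Ly6d between labels was not the same in the GC gate and in naive B cells, by -1.79 on the log2 scale in a test of that contrast itself (limma adjusted p 0.00288). Ly6d was lower in 4 of 4 GC libraries labelled knockout than in any labelled wild type, while naive libraries of the 2 labels overlapped. GC and T cell marker sums differed between the same GC libraries, and their part in this was not tested.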

How the results depend on the processing

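Ly6d kept its call in the GC gate in all 18 alternatives (log2 difference -2.11 to -1.77; adjusted p 0.000318 to 0.0245) and for the difference between gates in all 24 (-1.96 to -1.63; 0.00023 to 0.0137). Ly6a lost its call in the GC gate, at -1.15 (adjusted p 0.0813), without the first library labelled knockout and the third labelled wild type together, a choice made after seeing the data; leaving out 1 library at a time its difference ranged from -1.17 to -0.79 (adjusted p 0.0199 to 0.0744). The same range for Ly6c2 was -0.0045 to 2.31, reversing without the first library labelled wild type. The number of genes called in the GC gate was 432 without that pair of libraries and 603 to 1134 without 1 library, with 603, 712 and 732 without library 2, 3 or 1 labelled wild type. With a replicate block on libraries 1 to 3 it was 825, against 1031 for the same libraries with no replicate block, and the block changed no member's call; Ly6d was -1.77 with it. In naive B cells 0 genes were called in all 15 alternatives. Of 36 group levels, 16 moved by more than 1 SD on the total without immunoglobulin rows and Jchain, 26 under median-ratio scaling and 0 as medians over libraries. Under median-ratio scaling Ly6e of bone marrow ASC was 1.44-fold below naive libraries labelled wild type, without the overlap seen on the total without immunoglobulin rows and Jchain. Depth limits Ly6c1, which was under 3 reads in 8 libraries.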
